A study of Mus musculus with 4 samples.

Results

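Mitochondrially encoded transcripts were followed in Terc-/- mouse embryonic stem cells (mESCs) between population doubling (PD) 100 and PD800. The members were chosen by name, as every gene in the files whose symbol begins with mt-, which gave 37 of 53379 genes: 13 protein genes, 2 ribosomal RNAs (rRNAs) and 22 transfer RNAs (tRNAs). All cells belonged to DKO741, a single line made from E14 mESCs by targeting both copies of Terc, the telomerase RNA gene, so the early cells lack telomerase as well as the late ones. The PD100 cells are the pre-ALT stage and the PD800 cells the post-ALT stage, in which telomeres are kept by alternative lengthening (ALT), and the treatment label calls both numbers passages. Each stage has 2 libraries, described as biological duplicates, from RNA of feeder-free cultures, although embryonic fibroblasts served as feeders in routine maintenance. With 1 line, the stage cannot be told apart from other changes that this line went through in culture.

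Mitochondrial DNA is a small circle that is copied into long transcripts running around most of either strand. In these transcripts tRNAs sit between most of the rRNAs and mRNAs, and enzymes free the mRNAs and rRNAs by cutting the tRNAs out. The rRNAs build the mitochondrial ribosome, and the mRNAs encode core subunits of complexes I, III and IV of the respiratory chain and of ATP synthase, which are assembled with subunits encoded in the nucleus. After the cut, the RNAs persist for different times, so transcripts of 1 origin reach different levels. Nuclear chromosomes also carry old copies of mitochondrial DNA, and a read from a mitochondrial transcript can fit such a copy as well.

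On GRCm38 (mm10), with GENCODE M21 coordinates and transcript sequences, 28 members lie on the plus strand and 9 on the minus strand, and of the protein genes only mt-Nd6 is on the minus strand. The boundary between mt-Rnr2, the most abundant member, and mt-Nd1 is shown because a single tRNA, mt-Tl1, separates them without a spare base. The stretch covers chrM:2656-2770 on the plus strand, and the capitals mark mt-Tl1, between the last 20 bases of mt-Rnr2 and the first 20 of mt-Nd1.
mt-Rnr2 to mt-Nd1: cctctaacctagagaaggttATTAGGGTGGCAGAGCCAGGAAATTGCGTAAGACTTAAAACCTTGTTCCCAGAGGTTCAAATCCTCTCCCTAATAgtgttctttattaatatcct

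The mt-Atp8 gene (chrM:7766-7969, plus strand, 204 bases) is shown whole because its last 43 bases, in capitals, are also the first bases of mt-Atp6. The mRNA of both genes is a single molecule, and reads from the shared bases have no unique gene.
mt-Atp8: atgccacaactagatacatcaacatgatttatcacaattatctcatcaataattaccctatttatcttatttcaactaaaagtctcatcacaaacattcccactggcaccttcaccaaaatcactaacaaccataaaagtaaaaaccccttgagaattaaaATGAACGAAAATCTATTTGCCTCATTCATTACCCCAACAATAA

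Several nuclear copies are identical to their mitochondrial source or nearly so, and 3 pairs are shown because the counts of mt-Co1, mt-Co2, mt-Atp6, mt-Co3, mt-Nd3 and mt-Nd4l depend on how reads were divided. Gm28661 (chr1:24614885-24615565, minus strand) repeats 681 bases of mt-Co2 without a difference and ends 3 bases short of it. The end of mt-Co2 (chrM:7664-7696), with those 3 bases in capitals, is set against the end of Gm28661 (chr1:24614885-24614914, minus strand).
mt-Co2: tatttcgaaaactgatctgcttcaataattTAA
Gm28661: tatttcgaaaactgatctgcttcaataatt

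Gm29216 (chr1:24615706-24616197, minus strand) aligns with mt-Co1 over 483 bases and differs in that stretch by 1 substitution, A1066T, counted from the first base of mt-Co1, with the mitochondrial base named first. The 9 bases of Gm29216 before that stretch are outside the alignment, and with them 6 of its 492 bases differ. The differing base is in capitals in the windows chrM:6390-6423 (plus strand) and chr1:24616155-24616188 (minus strand).
mt-Co1: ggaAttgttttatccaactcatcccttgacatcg
Gm29216: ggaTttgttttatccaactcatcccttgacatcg

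Gm28438 (chr1:24612775-24613119, minus strand) differs from mt-Nd3 by 1 substitution, T3C, over 345 bases. The windows are chrM:9459-9491 (plus strand) and chr1:24613087-24613119 (minus strand).
mt-Nd3: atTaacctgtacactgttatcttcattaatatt
Gm28438: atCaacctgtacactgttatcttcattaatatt

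The authors aligned paired reads to mm10 and deposited, per gene and library, an expected count, which is RSEM's estimate of the read pairs from a gene with ambiguous reads divided between genes. The libraries held 32454121 to 38492149 expected counts. Terc had 1 count in PD100 replicate 1 and 0 in the other 3 libraries. The 10 embryonic stem cell markers were at more than 3 counts in all libraries, and their summed level was 2149 and 2461 CPM (counts scaled to a common library size, here with edgeR's TMM factors) at PD100 and 3947 and 4049 at PD800. All 10 primitive endoderm markers were lower at PD800, where their sum was 63.1 and 70.8 CPM against 1234 and 1408 at PD100. Of the 10 fibroblast markers, 8 were tested and 6 were lower, with sums of 50.5 and 72.4 CPM at PD100 and 14.8 and 15.8 at PD800, and Lum and Fap were at or under 3 counts in both PD800 libraries. Whether these marker RNAs came from other cell types was not tested, nor was their part in the mitochondrial values. In the paper's single-cell RNA sequencing the PD100 and PD800 cells formed separate populations, each described as highly homogeneous. In RNA from whole cultures, fewer mitochondria, fewer cells of a kind and less RNA per mitochondrion cannot be told apart.

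The rRNAs took most of the mitochondrial counts and a larger share of the PD800 libraries, while the protein genes did not separate the stages. Both rRNAs together made up 13.6% and 10.2% of all expected counts in PD100 replicates 1 and 2, and 16.5% and 15.02% in PD800 replicates 1 and 2. The PD800 libraries both lay above the PD100 libraries, and the mean was 11.9% ± 2.43 (SD, n = 2) at PD100 and 15.7% ± 1.02 (SD, n = 2) at PD800. The 13 protein genes made up 1.81% and 0.814% at PD100 and 1.24% and 1.01% at PD800. Here the PD800 libraries lay between the PD100 libraries, so the stages overlapped. The 95% Wilson intervals of these shares reach at most 0.0121 percentage points to either side, and they cover counting error only, which is well below the spread between replicates.

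The share of the rRNAs depended on the unit. As a share of TPM (RSEM's level per effective length, with a fixed sum over genes), the rRNAs took 7.53% and 5.08% at PD100 and 8.08% and 6.91% at PD800, and the stages overlapped. Without the nuclear small non-coding RNAs and rRNAs in the total, the share of counts was 14.8% and 11.5% at PD100 and 18.4% and 17.0% at PD800, again without overlap. Whether the libraries were made by poly(A) selection or by rRNA depletion is not given in the sources used here, and either step sets how much of an rRNA is captured, so the rRNA values are levels in these libraries and not in the cells. With 2 libraries against 2, an exact two-sided permutation test cannot give a p below 0.33, and no p is given for a sum over members.

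**Figure D1:**
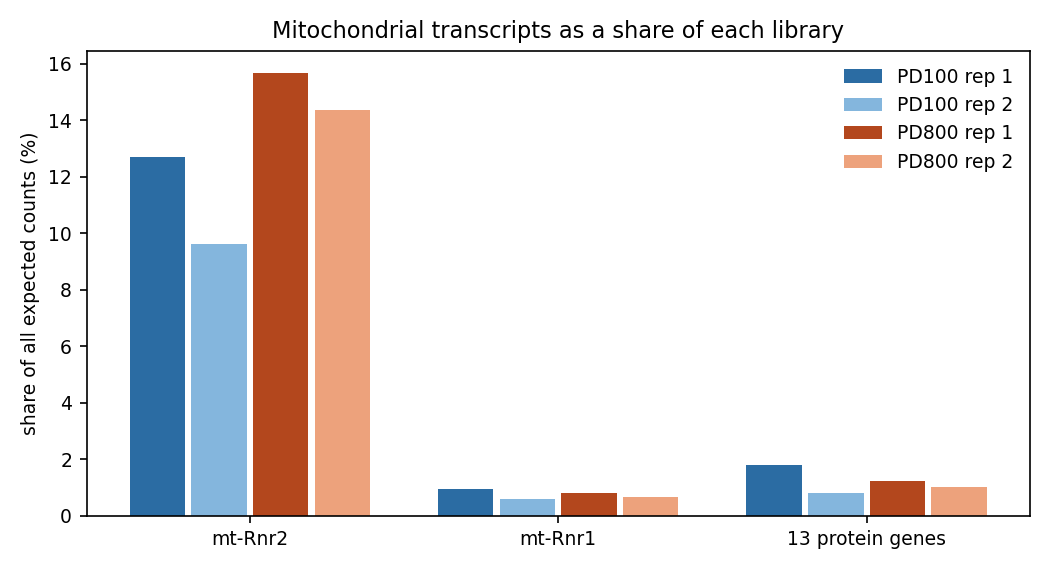
Share of all expected counts, in percent, held by mt-Rnr2, mt-Rnr1 and the sum of the 13 protein genes, with 1 bar per library. The mt-Rnr2 bars of both PD800 libraries (15.7% and 14.4%) stand above both PD100 bars (12.7% and 9.62%), while the other groups of bars overlap.

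Of the rRNAs, mt-Rnr2 (chrM:1094-2675), the RNA of the large subunit of the mitochondrial ribosome, was called higher. It had 4887816 and 3121923 counts at PD100 and 5874640 and 4795753 at PD800, which is 121083 and 93534 CPM against 163439 and 149254 CPM. On the log2 scale it rose by 0.54 with a standard error of 0.15, which passed edgeR's quasi-likelihood test (adjusted p = 0.0278). The PD800 values both lay above the PD100 values. With totals as the only scaling, the log2 fold change was 0.43 with an adjusted p of 0.0611 by the same edgeR test, and on the log2(TPM + 1) scale it was 0.32 with an adjusted p of 0.744 by limma. The call held in 8 of 13 alternatives that used all 4 libraries, with adjusted p from 6.73e-16 to 1.00 by edgeR, DESeq2 or limma. Without PD800 replicate 1 or replicate 2, the adjusted p in edgeR's test was 0.193 and 0.173, and without PD100 replicate 2 the log2 fold change was 0.35.

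mt-Rnr1 (chrM:70-1024), the RNA of the small subunit, did not pass the test. It had 8870 and 5621 CPM at PD100 and 8229 and 6721 CPM at PD800. The PD800 values lay between the PD100 values, and its log2 fold change was 0.04 (95% interval -0.51 to 0.60, adjusted p = 0.889 by edgeR), an interval that holds the value of mt-Rnr2. The difference between the 2 rRNAs was not tested. Per length, mt-Rnr2 had 7.59 and 9.37 times the TPM of mt-Rnr1 at PD100 and 11.1 and 12.4 times at PD800. These ratios, taken within each library, did not overlap between the stages, which is a description without a test.

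Across all genes, edgeR's test called 22.1% of the 19148 genes tested higher at PD800 and 23.6% lower at an adjusted p under 0.05, and the median log2 fold change was 0.01. When only library totals were used for scaling, that median moved to -0.10 and higher genes made up 38.2% of the calls in place of 48.3%. All 13 protein genes and both rRNAs had enough counts for the test, and no tRNA did. Of these 15 members, 2 were called higher, mt-Rnr2 and mt-Atp6, and 0 lower by edgeR, and the other 13 did not pass. At an unadjusted p under 0.05 edgeR again gave 2 higher and 0 lower, DESeq2 called 2 higher and 0 lower, and limma on log2(TPM + 1) called 0, where it called 9.25% of all genes higher and 26.6% lower. Leaving out a PD100 library moved the members. Without PD100 replicate 1 the log2 fold changes of mt-Rnr2, mt-Atp6, mt-Nd2 and mt-Co1 were 0.74, 1.18, 1.29 and 0.22. Without PD100 replicate 2 they were 0.35, 0.63, -0.54 and -0.96. Without PD800 replicate 1 or replicate 2, mt-Rnr2 was at 0.48 and 0.61 and mt-Atp6 at 0.74 and 1.04. At an adjusted p under 0.01 with a fold change over 2, 6.28% of all genes were called higher and 8.81% lower, and of the members 0 were called by edgeR in either direction. In CPM the stages did not overlap for 4 of the 15 members, mt-Rnr2, mt-Atp6, mt-Nd3 and mt-Cytb, against 73.7% of all genes tested. The median log2 fold change of the 15 members was 0.17.

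**Figure D2:**
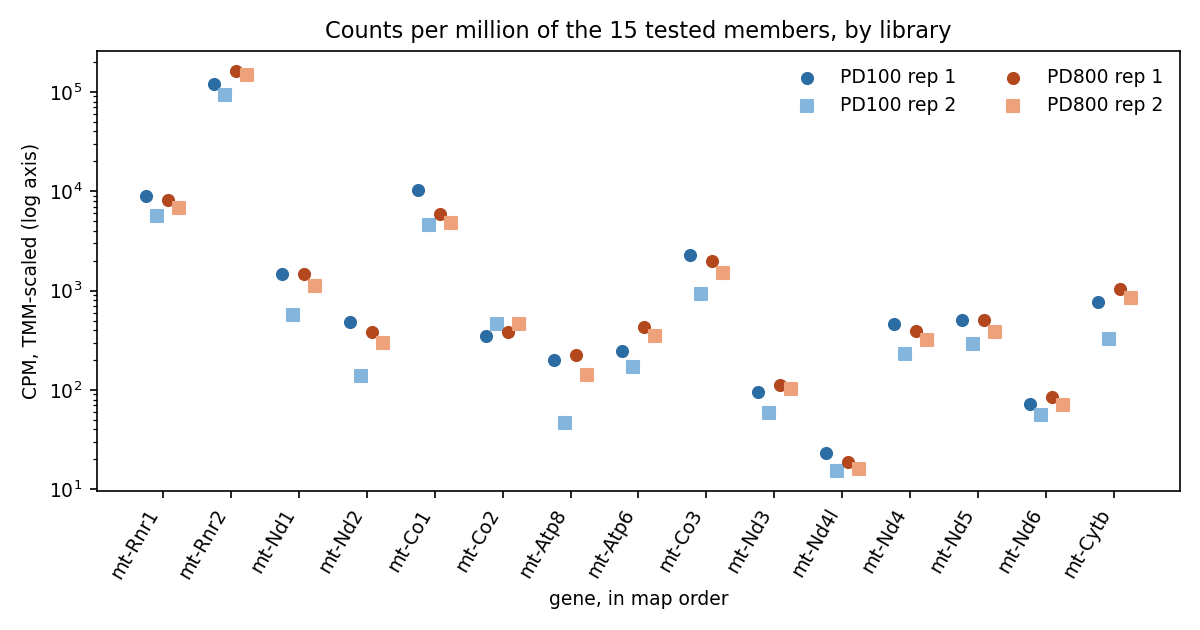
TMM-scaled CPM of the 15 tested members on a log axis, in the order of the genes on the map, with 1 point per library. Except for mt-Co2, the point of PD100 replicate 2 lies below that of PD100 replicate 1, and for 7 of the 15 genes both PD800 points fall between them.

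The PD100 libraries differed from each other in mitochondrial transcripts by more than in most genes. PD100 replicate 1 was above replicate 2 for 14 of the 15 members, with a median log2 ratio of 0.82, against a median of 0.00 over all genes tested. For 7 of the 15 the ratio was beyond the 95th percentile of all genes, a log2 ratio of 0.84 in either direction. The extremes were mt-Atp8, at 4.31 times the level of replicate 2, and mt-Co2, at 0.761 times. In the PD800 libraries replicate 1 was also above replicate 2 for 14 of 15 members, but with a median log2 ratio of 0.30, and 0 of the 15 passed the 95th percentile of 0.69. Of the 12 tested genes of a list of 15 nuclear RNAs without a poly(A) tail, 9 were higher in PD100 replicate 2, among them 7SL and 7SK RNA, and 3 were higher in replicate 1, among them Rmrp at 3379 and 2576 CPM. The list took 7.05% of the counts in PD100 replicate 1 and 9.97% in replicate 2, and 9.67% and 10.6% at PD800. The part of library composition in the mitochondrial values was not tested.

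The genes of complex I, the entry point of electrons from NADH, gave no call. mt-Nd1 had 1482 and 569 CPM at PD100 and 1457 and 1118 CPM at PD800, and its log2 fold change was 0.33 (95% interval -0.69 to 1.35). That value was 1.18 without PD100 replicate 1 and -0.23 without PD100 replicate 2. mt-Nd3 had 95.5 and 58.9 CPM at PD100 and 113 and 102 CPM at PD800, which did not overlap, with a log2 fold change of 0.48 (adjusted p = 0.126 by edgeR). Without PD100 replicate 1 the log2 fold change of mt-Nd3 was 0.87 and without PD100 replicate 2 it was 0.15. The adjusted p of mt-Nd3 was 0.301 by edgeR's test after the counts of Gm28438 were added, and the stages then overlapped. mt-Nd6, the minus-strand gene, had 72.5 and 55.7 CPM at PD100 and 83.96 and 70.4 CPM at PD800 (log2 fold change 0.27, adjusted p = 0.197 by edgeR). mt-Nd2, mt-Nd4, mt-Nd4l and mt-Nd5 had log2 fold changes between -0.16 and 0.17, smaller than their standard errors of 0.21 to 0.52. That of mt-Nd4l turned from -0.16 to 0.12 (standard error 0.44) after the counts of its nuclear copy Gm10222 were added. On the map mt-Nd6 shares 14 bases with mt-Nd5, and mt-Nd4l shares 7 with mt-Nd4. The strand setting of the count is not given in the sources used here, so reads of mt-Nd6 and of antisense RNA over it may not be separated.

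mt-Cytb, the catalytic cytochrome b of complex III, was second to mt-Atp6 in fold change in the deposited counts and first once the nuclear copies were added (log2 fold changes of 0.79 and 0.63). It had 772 and 324 CPM at PD100 and 1049 and 849 CPM at PD800. Its PD800 values lay above the PD100 values, and its log2 fold change was 0.79 (standard error 0.38), but it did not pass the test (adjusted p = 0.138 by edgeR). Without PD100 replicate 1 its log2 fold change was 1.55 (adjusted p = 5.29e-08 by edgeR), and without PD100 replicate 2 it was 0.28 (adjusted p = 0.0318 by edgeR). Division with a nuclear copy hardly touched it, since its only matching copy, Gm11410, which was too low for the test, had 2 and 1 counts at PD100 and 0 and 1 at PD800 against 10828 to 37716 for mt-Cytb.

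The complex IV genes encode the catalytic core of cytochrome c oxidase. mt-Co1 had 10266 and 4630 CPM at PD100 and 5926 and 4825 CPM at PD800, and its log2 fold change was -0.47 (95% interval -1.33 to 0.39, adjusted p = 0.322 by edgeR). Both PD800 libraries were close to PD100 replicate 2 and far below replicate 1, and without PD100 replicate 1 the log2 fold change was 0.22 in place of -0.47. mt-Co3 had 2307 and 928 CPM at PD100 and 1965 and 1512 CPM at PD800 (log2 fold change 0.10). mt-Co2 had 348 and 458 CPM at PD100 and 380 and 459 CPM at PD800 (log2 fold change 0.06), the one member that was higher in replicate 2 than in replicate 1 at both stages. With totals as the only scaling the log2 fold changes of mt-Co2 and mt-Co3 were -0.05 and -0.01.

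Of the ATP synthase genes, mt-Atp6, which encodes the subunit that passes protons with the rotor ring, was called higher as deposited. It had 247 and 172 CPM at PD100 and 429 and 347 CPM at PD800, 0.89 higher on the log2 scale with a standard error of 0.19 (adjusted p = 0.0117 by edgeR). Most reads that fit mt-Atp6 were however assigned to Gm10925 (chr1:24613974-24614651, minus strand), which repeats 678 of its bases without a difference. Gm10925 had 1020 and 275 CPM at PD100 and 1070 and 807 CPM at PD800. With these counts added, mt-Atp6 had 1267 and 447 CPM at PD100 and 1499 and 1154 CPM at PD800, the stages overlapped, and the difference was 0.63 on the log2 scale with a standard error of 0.45 (adjusted p = 0.298 by edgeR). The call of mt-Atp6 thus depended on the division of reads between identical sequences. mt-Atp8, which lies on the same mRNA, had 200 and 46.4 CPM at PD100 and 227 and 141 CPM at PD800 (log2 fold change 0.58, 95% interval -0.94 to 2.10). Its log2 fold change was 1.99 without PD100 replicate 1 and -0.14 without PD100 replicate 2.

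**Figure D3:**
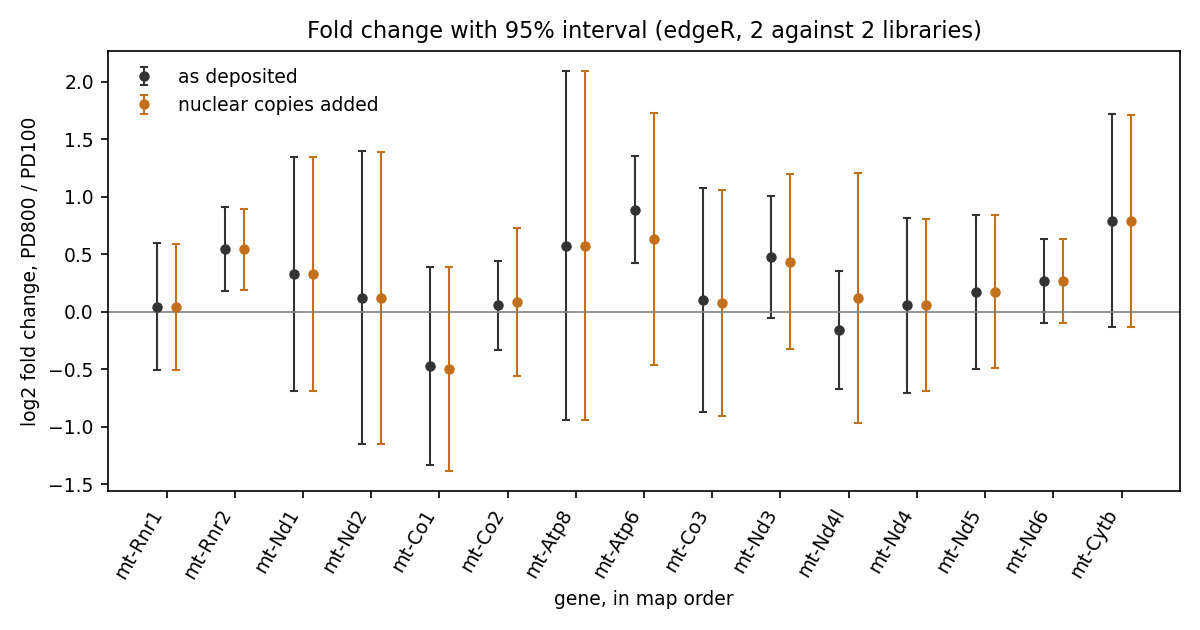
Log2 fold change of PD800 over PD100 with its 95% interval from edgeR, for the deposited counts (dark) and after the counts of nuclear copies were added to the matching gene (orange). The interval of mt-Rnr2 lies above 0 in both versions, and that of mt-Atp6 in the deposited counts only.

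A blastn search of all annotated transcripts found 16 nuclear genes that match a mitochondrial transcript at 90% identity or more over at least 100 bases, and 7 of them form a block on chromosome 1 (chr1:24611535-24616197). Of the 16, 10 had enough counts for the test. Added together, the copies had 212135 and 62324 counts at PD100 and 144320 and 98775 at PD800. Like most members, this sum was higher in replicate 1 at both stages. Of the tested copies, Gm13340, Gm13341 and Gm28439 were instead higher in replicate 2 in CPM at both stages.

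Gm28661 took more counts than mt-Co2 itself in every library, with 72484 and 24213 at PD100 and 53536 and 38417 at PD800 against 14063, 15285, 13659 and 14751 for mt-Co2. mt-Co2 kept 16.2% and 38.6% of the sum at PD100 and 20.3% and 27.7% at PD800. The share that stayed with the mitochondrial gene thus differed between replicates of a stage. It differed likewise for mt-Atp6, at 19.5% and 38.4% at PD100 and 28.6% and 30.1% at PD800. With the copies added, mt-Co2 had 2147 and 1186 CPM at PD100 and 1871 and 1658 CPM at PD800, and was higher in replicate 1 as the other members were.

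Gm29216, the copy of mt-Co1, had 1572 and 538 CPM at PD100 and 771 and 541 CPM at PD800. Gm28437 (chr1:24613189-24613971), identical to mt-Co3 over 783 bases, had 772 and 295 CPM at PD100 and 600 and 468 CPM at PD800. Neither passed the test. Gm28438, Gm10222 and Gm28439, the copies of mt-Nd3, mt-Nd4l and mt-Nd4 in the same block, were at 1.39 to 42.6 CPM and had log2 fold changes of 0.25 to 0.32. Outside that block, the only tested copies were Gm13339, Gm13340 and Gm13341 on chromosome 2, at 0.304 to 12.8 CPM. Gm13340, which is 97.6% identical to mt-Co1, was the only copy called, with 11.5 and 12.8 CPM at PD100 and 8.08 and 8.58 CPM at PD800 (log2 fold change -0.54, adjusted p = 0.00860 by edgeR). Whether any of these copies is itself transcribed cannot be read from counts divided in this way. With all copies added, 1 of the 15 members was called higher by edgeR, mt-Rnr2, and 0 lower, and the numbers were the same at an unadjusted p under 0.05.

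Within the mitochondrial mRNAs, the shares of mt-Co1 and mt-Cytb were close between replicates and did not overlap between the stages. Counts of each protein gene, with nuclear copies added, were taken as a percent of the sum over the 13 protein genes, which does not depend on scaling between libraries. mt-Co1 made up 52.6% and 53.0% at PD100 and 39.6% and 39.8% at PD800, although the total of these mRNAs differed by more than 2-fold between the PD100 libraries. mt-Cytb made up 3.43% and 3.32% at PD100 and 6.19% and 6.28% at PD800. mt-Atp6 went from 5.63% and 4.57% to 8.84% and 8.54%, and mt-Nd1 from 6.58% and 5.82% to 8.60% and 8.27%. The replicates of PD100 were further apart in other genes, such as mt-Atp8 at 0.887% and 0.475% and mt-Nd6 at 0.322% and 0.570%. mt-Co2, mt-Nd4, mt-Nd5 and mt-Nd6 overlapped between the stages. The other 9 genes did not overlap, 1 of them lower (mt-Co1) and 8 higher, where 31.0% of all genes tested had non-overlapping values on the same denominator. The 31.0% is not a like background. The sum differed by more than 2-fold between the PD100 libraries, and this difference cancels only for the genes that are part of the sum.

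**Figure D4:**
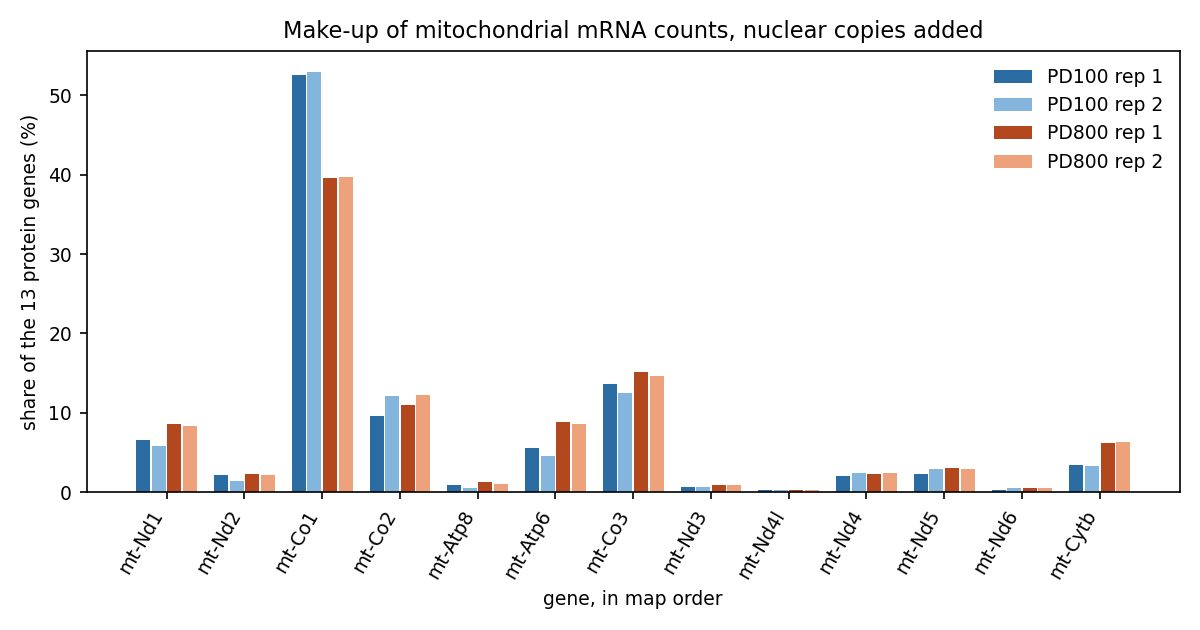
Percent of the summed counts of the 13 mitochondrial protein genes held by each gene, nuclear copies added, with 1 bar per library. The mt-Co1 bars are at 52.6% and 53.0% for PD100 and at 39.6% and 39.8% for PD800, and the mt-Cytb bars are at 3.43% and 3.32% against 6.19% and 6.28%.

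The shares sum to a fixed total, so a lower share of mt-Co1 raises the shares of the other 12 genes. With mt-Co1 left out of the sum, 3 genes were higher without overlap (mt-Cytb, mt-Atp6 and mt-Nd3), 2 were lower (mt-Co3 and mt-Nd4) and 7 overlapped, where 35.2% of all genes tested did not overlap on this denominator. For the same reason as above, that share is not a like background either. mt-Cytb still stood apart, at 7.23% and 7.05% at PD100 and 10.2% and 10.4% at PD800, and mt-Atp6 was at 11.9% and 9.72% against 14.6% and 14.2%. mt-Co3 was then lower at PD800, at 25.0% and 24.3% against 28.9% and 26.6%, and mt-Nd1 overlapped, at 14.2% and 13.7% against 13.9% and 12.4%. The ratio of mt-Cytb to mt-Co1 counts was 0.0651 and 0.0626 at PD100 and 0.157 and 0.158 at PD800. The deposited counts without the copies gave 59.5% and 58.5% against 45.8% and 46.2% for mt-Co1, and 4.47% and 4.10% against 8.11% and 8.13% for mt-Cytb. These shares and ratios are descriptions without a test. When the counts, copies included, were scaled to the sum of the mitochondrial mRNAs and put through edgeR's test, 0 of the members passed, with adjusted p at or near 1, and 0 had an unadjusted p under 0.05. Only 0.554% of all genes were higher and 2.11% lower on that scale. The log2 fold changes of the members were still 0.89 for mt-Cytb, 0.77 for mt-Atp6 and -0.41 for mt-Co1, with standard errors of 0.82, 0.81 and 0.75. The sum took 2.36% and 1.01% of the counts at PD100, and dividing by it sets other genes apart between these replicates. edgeR's estimate of spread draws on all genes, so this test cannot decide whether the shares differ between the stages.

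Per length, the levels spanned a wide range. TPM was scaled up by the counts of the copies, which were given the effective length of the mitochondrial gene. On this scale mt-Rnr2 came first by its mean, with 66513 and 45916 at PD100 and 74098 and 63906 at PD800, followed by mt-Rnr1 with 8758 and 4900 against 6681 and 5149. mt-Co1 was the highest mRNA, at 6684 and 2610 TPM at PD100 and 3121 and 2363 TPM at PD800. mt-Nd6 was the lowest by its mean at both stages, at 161 and 105 TPM against 151 and 120. The order of the mean levels was the same at both stages except that mt-Co2 and mt-Atp8 changed places, and the spread of either gene at PD100 was larger than the gap between them. The TPM of mt-Atp8 rests on a short effective length, 46.42 and 60.85 bases at PD100 and 50.14 and 51.43 at PD800, of 204.

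The 22 tRNAs could not be read from these libraries. They are 59 to 75 bases long, and their effective length, the length that RSEM treats as usable, was listed as 0 in each library. For mt-Rnr2 the effective length fell short of the full length by 147 to 169 bases. The shortest, mt-Ts2 (chrM:11613-11671, plus strand), is shown to give the size of such a transcript.
mt-Ts2: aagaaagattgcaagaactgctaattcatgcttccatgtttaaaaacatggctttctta

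All tRNAs together had 3 counts in 4 libraries: 1 of mt-Ts1 in PD100 replicate 1, 1 of mt-Te in PD800 replicate 1 and 1 of mt-Tm in PD800 replicate 2. The other 19 were at 0 everywhere. With an effective length of 0 these counts set no upper limit on the tRNAs, and no fold change is given.

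The proteins that make, process and translate these transcripts are encoded in the nucleus. Over the lists of such genes and of nuclear subunits of the respiratory complexes, 253 of 254 genes were tested. Of these, 54 were higher and 47 lower by edgeR's test, with a median log2 fold change of 0.05, beside 22.1% higher and 23.6% lower of all genes.

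Of the 12 genes of mitochondrial transcription and the nucleoid, 4 were higher and 4 lower, with a median of 0.15. Mterf2, of the family of mitochondrial termination factors, rose from 6.45 and 5.78 CPM to 14.3 and 15.9 CPM (log2 fold change 1.299, adjusted p = 0.000419 by edgeR). Lrpprc, which binds and stabilises mitochondrial mRNAs, fell from 168 and 195 CPM to 99.9 and 106 CPM (log2 fold change -0.81, adjusted p = 0.00127 by edgeR). The core machinery, chosen for mention after its values were seen, did not move as one. Polrmt, the RNA polymerase of mitochondria, was at 32.6 ± 4.83 CPM (SD, n = 2) at PD100 and 34.2 ± 1.86 CPM (SD, n = 2) at PD800. Tfam, which packs mitochondrial DNA and starts its transcription, fell from 61.3 ± 7.66 to 38.0 ± 3.30 CPM (SD, n = 2; log2 fold change -0.69), and Tfb2m, which opens the promoter, fell from 15.96 ± 0.511 to 10.1 ± 0.283 CPM (SD, n = 2; log2 fold change -0.66).

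Of 17 genes that copy and maintain mitochondrial DNA, 1 was higher and 7 lower (median -0.16). Mpv17, an inner membrane protein needed to keep the DNA, rose by 0.49 on the log2 scale, and Slc25a33, a carrier of pyrimidine nucleotides, had a log2 fold change of -0.77. Of 28 genes of RNA processing and modification, 6 were higher and 3 lower (median 0.06). Trmt2b, a methyltransferase of mitochondrial RNA, rose from 4.90 and 5.18 CPM to 12.02 and 10.8 CPM, and Gtpbp3, which modifies tRNA anticodons, fell from 33.9 and 39.0 CPM to 22.2 and 25.6 CPM.

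Of 18 genes of RNA stability and decay, 3 were higher and 8 lower (median -0.17), a share of lower calls above that of all genes, for which no test was made. Endog, a nuclease of the intermembrane space, fell from 9.37 and 10.6 CPM to 3.90 and 5.34 CPM (log2 fold change -1.11), and Exog, a related nuclease, rose by 0.51 on the log2 scale. Both parts of the helicase and nuclease complex that degrades mitochondrial RNA, named after their values were seen, fell, Supv3l1 from 47.6 ± 0.810 to 24.1 ± 0.126 CPM (SD, n = 2; log2 fold change -0.98) and its partner Pnpt1 from 95.9 ± 8.16 to 66.0 ± 1.81 CPM (SD, n = 2; log2 fold change -0.54).

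For translation, 3 of 14 factors were higher and 2 lower (median -0.07). Mtif3, an initiation factor, rose by 0.66 on the log2 scale, and Tsfm, an elongation factor, had a log2 fold change of -0.91. Of 78 mitochondrial ribosomal proteins, which join the rRNAs, 16 were higher and 15 lower, with a median of 0.03. Mrpl12 rose from 40.8 and 57.6 CPM to 105 and 120 CPM, and Mrpl34 fell from 30.5 and 32.1 CPM to 17.7 and 17.3 CPM. By limma on log2(TPM + 1), 3 of the ribosomal proteins were higher and 28 lower, on a scale where 9.25% of all genes were higher and 26.6% lower.

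Among 12 regulators of mitochondrial biogenesis that were tested, 3 were higher and 2 lower (median 0.09). The transcription factor Yy1 rose from 83.2 and 86.4 CPM to 151 and 152 CPM, and the coactivator Pprc1 fell from 120 and 141 CPM to 81.7 and 78.2 CPM.

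Of 75 nuclear subunits of complexes I to V, 19 (25.3%) were higher and 6 (8%) lower by edgeR, with a median log2 fold change of 0.14, beside 22.1% and 23.6% of all genes. The balance depended on the scale, with 13 higher and 9 lower with library totals alone (17.3% and 28.1% of all genes), and 4 higher and 12 lower by limma on log2(TPM + 1) (9.25% and 26.6% of all genes). In complex I, 9 of 36 were higher and 3 lower, among them Ndufa12 (log2 fold change 1.16) and Ndufa13 (log2 fold change -0.51). In complex III, 3 of 9 were higher and 3 lower, with Uqcrc2 at 0.78 and Cyc1 at -0.28. In complex IV, 3 of 11 were higher and 0 lower, and Cox7b rose from 114 and 91.6 CPM to 277 and 263 CPM. In ATP synthase, 4 of 15 were higher and 0 lower, and Atp5e rose from 9.17 and 14.4 CPM to 23.5 and 26.0 CPM. Of the 4 subunits of complex II, which has no mitochondrially encoded subunit, 0 were called in either direction by edgeR or DESeq2, and 2 were higher at an unadjusted p under 0.05 by both. Of complex IV and ATP synthase, 1 gene each was lower at an unadjusted p under 0.05 by edgeR, and DESeq2 called 1 lower in complex IV and 0 in ATP synthase. These counts moved with the scaling. With library totals alone, 35 of all the listed nuclear genes were higher in place of 54, and limma on log2(TPM + 1) gave 13 higher and 74 lower of 253, beside 9.25% and 26.6% of all genes. Leaving out any 1 library gave 23 to 83 higher and 17 to 76 lower, with the fewest calls without a PD800 library.

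**Figure D5:**
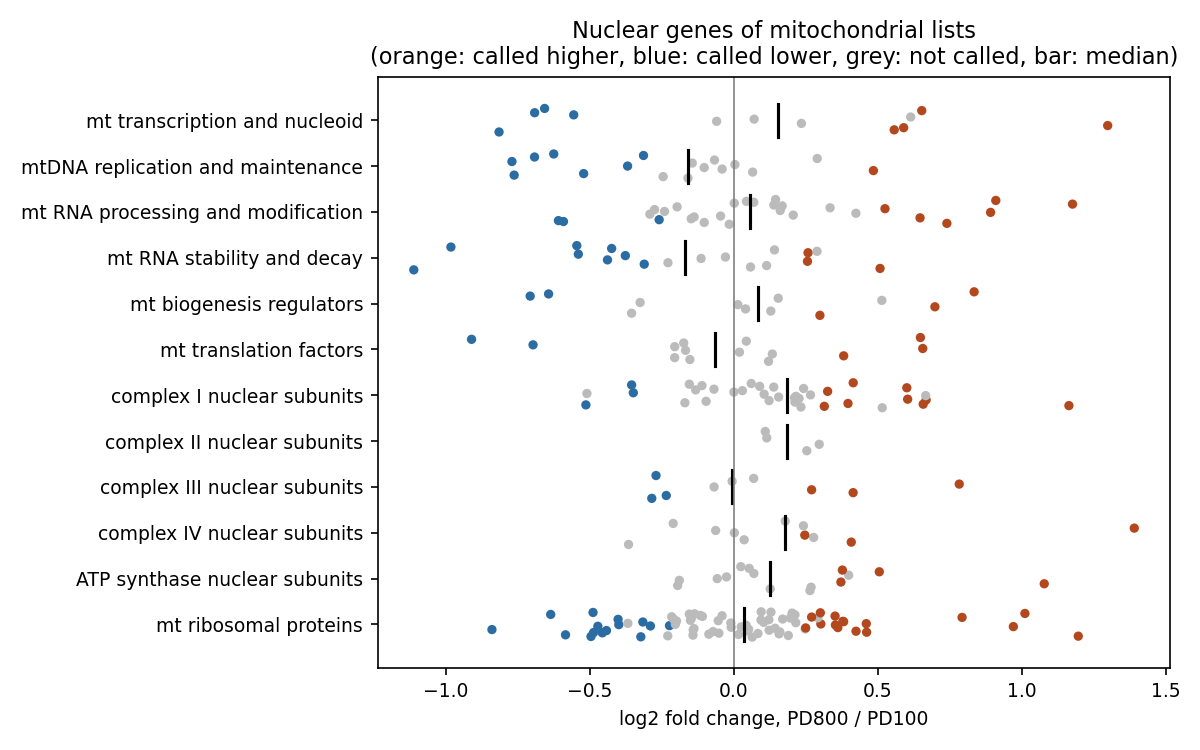
Difference of PD800 from PD100, as a log2 fold change, of each tested gene of the nuclear lists, 1 point per gene and 1 row per list, coloured by edgeR's call at an adjusted p under 0.05, with a bar at the median of the list. The medians lie between -0.17 and 0.18, and most lists hold genes called in both directions.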

How the data were processed

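RNA of 2 PD100 and 2 PD800 cultures was sequenced as 101-base pairs, called mRNA in the paper and total RNA in the labels. The authors aligned reads with STAR 2.5.3a to mm10, and deposited RSEM 1.3.0 expected counts (estimated counts, unscaled, ambiguous reads divided) and TPM values (scaled for length and total). The authors also deposited FPKM values from RSEM (per length and depth), not used here. Annotation and strand setting are not given in the sources used here. Of 53379 gene IDs, 53274 were found in GENCODE M21 without regard to version.

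Expected counts were rounded and tested in R 4.3.3 with edgeR 4.0.16 (filterByExpr, minimum count 10; TMM; quasi-likelihood test; Benjamini-Hochberg over 19148 genes). A call needed an adjusted p under 0.05. Shares and make-up got no test. The methods call the duplicates biological and say no more, so p-values measure the spread between these libraries only. The floor of 3 counts was 0.0743 to 0.0934 CPM; floors and the Wilson intervals of shares cover counting error only, while edgeR's intervals of fold changes include the spread between libraries. Nuclear copies were found with blastn 2.17.0 (90% identity, 100 bases) and their counts added to the best matching member. The cell type, RNA class and mitochondrial lists and the members were chosen with earlier results of these data known. A few nuclear genes outside the naming rule are marked in the text. Named were all protein genes and rRNAs, tRNAs and copies that passed the filter, and for each nuclear list the called genes with the largest rise and largest fall at a mean of at least 5 CPM. Alternatives were nuclear copies added, DESeq2 1.42.0, other scalings and filters, limma 3.58.1 on log2(TPM + 1) and log2(TPM + 0.1), a replicate block, a stricter call rule and each library left out. The fit was tested on simulated data. Protein sequences were not used here.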

Additional observations from a re-analysis of the deposited data

How the results depend on the processing

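Of the 15 members, mt-Rnr2, mt-Atp6, mt-Cytb, mt-Atp8, mt-Nd3, mt-Nd1, mt-Nd2, mt-Nd6 and mt-Co1 kept the sign of their log2 fold change under all settings that used all 4 libraries. With library totals only, the log2 fold changes of mt-Co2, mt-Co3, mt-Nd4 and mt-Rnr1 were -0.052, -0.014, -0.061 and -0.070. With limma at a TPM pseudocount of 1 or 0.1, which put the median gene at -0.12 and -0.21, mt-Co2 was at -0.17, mt-Nd4 at -0.10, mt-Rnr1 at -0.16 and mt-Nd5 at -0.020 and -0.019, the others alike on both scales. Adding nuclear copies turned mt-Nd4l from -0.16 to 0.12 (0.27 when also scaled to the mitochondrial mRNA sum, and 0.28 with the replicate block).

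Of the members, 2 were called higher. This number was 1 with library totals only, 1 with at least 10 counts in every library, 1 with nuclear copies added, and 0 with limma on either TPM scale, with the stricter call rule and with the mitochondrial mRNA sum as the scale. Without an expression filter, edgeR called 7 higher and 1 lower (mt-Co1), beside 4948 higher and 5349 lower of 32384 genes, and the cause was not tested. Over all genes, the stricter rule gave 1202 higher and 1686 lower, and limma gave 1771 and 1775 higher and 5094 and 5178 lower on the 2 TPM scales, in place of 4224 and 4515. For the nuclear lists, the higher calls were 35 with totals only, 13 with limma on either scale and 7 by the stricter rule, and the lower calls 74 on both limma scales and 1 by the stricter rule.

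No source says that a replicate number marks a shared batch, and the libraries share only a number. Same-numbered libraries deviated from their stage means with a correlation of 0.265 across genes, and with 2 pairs this is a hint from the data. With the replicate block, edgeR called 7 members higher and 0 lower, both without and with the nuclear copies: mt-Rnr2, mt-Atp6, mt-Cytb, mt-Nd3, mt-Atp8, mt-Nd6 and mt-Nd1 (deposited counts, adjusted p 0.000478, 8.97e-06, 0.00124, 0.00328, 0.0108, 0.0137 and 0.0468), when 5214 of all genes were higher and 5262 lower.

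The rRNA share was 3.83 percentage points higher at PD800 in counts and 1.19 in TPM. The mt-Co1 share of the mitochondrial mRNA was -12.98 points in counts and -12.27 in TPM. That of mt-Cytb was 3.84 points in counts, 2.25 in TPM, 2.86 with copies added and 3.19 with mt-Co1 also left out of the sum. The settings with copies in the make-up, with copies and the block, with mt-Co1 left out of the sum, and those scaled to the mitochondrial mRNA sum were chosen after seeing the data.

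Leaving out each library in turn, which leaves 1 library in a stage and assumes that it varies like the other stage's pair, gave the following ranges. The members called higher ranged from 1 to 13 (13 without PD100 replicate 1, 1 without either PD800 library) and those called lower from 0 to 6 (6 without PD100 replicate 2). The ranges of the log2 fold change were -0.27 to 0.41 for mt-Rnr1, 0.35 to 0.74 for mt-Rnr2, 0.28 to 1.55 for mt-Cytb, 0.63 to 1.18 for mt-Atp6, 0.15 to 0.87 for mt-Nd3, 0.07 to 0.47 for mt-Nd6, -0.23 to 1.18 for mt-Nd1, -0.54 to 1.29 for mt-Nd2, -0.96 to 0.22 for mt-Co1, -0.12 to 0.25 for mt-Co2, -0.14 to 1.99 for mt-Atp8, -0.43 to 0.91 for mt-Co3, -0.45 to 0.19 for mt-Nd4l, -0.38 to 0.64 for mt-Nd4 and -0.20 to 0.64 for mt-Nd5. The protein gene share ranged from -0.69 to 0.31 points (above 0 without PD100 replicate 1), the rRNA share from 2.12 to 5.55, the share of all members from 1.43 to 5.86, mt-Co1 within the mRNAs from -13.46 to -12.50 and mt-Cytb from 3.65 to 4.02. All genes called higher ranged from 2330 to 5322 and lower from 2799 to 5340, and nuclear list genes from 23 to 83 higher and from 17 to 76 lower.

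The 95% intervals of 12 of the 13 protein genes included 0. Depth was 32454121 to 38492149 counts, and its part in the missing calls was not tested. The tRNAs had an effective length of 0.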

Other observations

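RNA classes other than the mitochondrial ones were also listed, and their calls stand beside 22.1% higher and 23.6% lower of all genes tested. Of 67 replication-dependent histone genes tested, whose mRNAs end without a poly(A) tail, 7 were higher and 5 lower by edgeR's test, at a median of 0.06 on the log2 scale, and they took 0.989% and 0.972% of the counts at PD100 and 0.912% and 0.967% at PD800. Hist2h2ab rose by 1.48 on the log2 scale, and Hist3h2a had a log2 fold change of -0.51. Of 12 tested RNAs of the polymerase III and small nuclear kinds, 2 were higher: Scarna10, a guide RNA of Cajal bodies, with 87.3 and 66.7 CPM at PD100 and 144 and 127 CPM at PD800, and Rn7sk, which holds back the elongation factor P-TEFb, with a log2 fold change of 0.63. Of 4 nuclear long non-coding RNAs, 1 was lower: Malat1, with 3683 and 3992 CPM at PD100 and 2717 and 2730 CPM at PD800.

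Of the cell type markers, Klf4 had 19.97 and 16.4 CPM at PD100 and 134 and 126 CPM at PD800. Sox17, a transcription factor of primitive endoderm, had 17.6 and 17.4 CPM against 0.250 and 0.280 CPM, and Col1a1, a fibroblast collagen, had 13.03 and 24.4 CPM against 1.95 and 2.52 CPM.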
